A study of Homo sapiens with 35 samples.

Results

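The antigen receptor loci are the gene clusters IGH, IGK, IGL, TRA, TRD, TRB and TRG, from which B and T lymphocytes assemble their receptors. TRD lies inside TRA, so they form 6 regions, and every bin of 100 kb with a value that overlapped one of them in hg19 was taken. This gave 54 of the 26584 bins with values: 13 in IGH, 11 in IGK, 10 in IGL, 11 in TRA with TRD (TRA/TRD below), 6 in TRB and 3 in TRG. The bins were chosen by position alone.

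In developing lymphocytes, the RAG recombinase joins separate variable (V), diversity (D) and joining (J) gene segments into one exon, which is spliced to a constant (C) region. IGH, IGK and IGL encode the heavy and light chains of antibodies, and TRA, TRB, TRD and TRG the chains of the T-cell receptor. In mouse progenitors that do not yet recombine them, Igh and Igk lie at the nuclear periphery and move inward in pro-B cells. The nuclear lamina, a filament layer under the nuclear envelope, binds large and mostly silent domains that are often poor in genes.

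The cells were of 1 group, clone 5-5 of KBM7, a human leukaemia line of myeloid origin, labelled diploid (2N) and carrying Dam fused to lamin B1. Dam is a bacterial adenine methylase, so DNA that came near the lamina gained methyl groups at GATC sites. Methylation was switched on with 0.5 nM Shield1, a ligand that stabilises suitably tagged proteins, for 15 h. Cells that carried both colours of the Fucci cell-cycle reporter were then sorted singly, from the 2% of smallest size. A value is observed over expected reads (OE) in a bin of 1 cell, and an OE of 1 or more was called a contact. A call can stem from either homologue and from any moment of those 15 h. All cells come from 1 clone, there were no control cells, and nothing in the labels says that cells came from separate cultures. The p-values therefore treat these cells as units and cover no variation between cultures or clones. Whether any receptor gene was rearranged or transcribed was not measured.

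The table held 32 cells, with 985 to 258225 recovered reads each. In 3 cells (13, 15 and 17) there were at most 1755 reads, and none of the 64 contacts found in the loci came from these cells. Over the whole table, a cell had 26.3% ± 8.08 of its bins in contact (SD, n = 32), and 44.6% of all bin values were above 0.

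The antigen receptor loci were rarely in contact with the lamina. Of their 1728 bin values (54 bins in 32 cells), 64 were contacts (3.70%), against 26.3% over the whole table. In 33 of the 54 bins no cell had a contact, and the same held for 42.0% of all bins. These include bins without a read in any cell, 7 of the 54 and 1204 of all 26584, for which no expected reads could be recovered. The median contact frequency, the percentage of cells in which a bin is in contact, was 0%, against 6.25% over all bins. A count of 0 in 32 cells allows a contact frequency of up to 9.38%. The exact Poisson-binomial test, with Benjamini-Hochberg adjustment over all bins, called 44 of the 54 bins in contact less often than the cells' own contact shares predict and 0 more often. Over the whole table, 54.5% of the bins were called less often and 30.3% more often, so low contact by itself is common in this genome. The most contacted bin was in IGK, with 8 cells, close to the 8.42 cells expected of any bin.

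**Figure D1:**
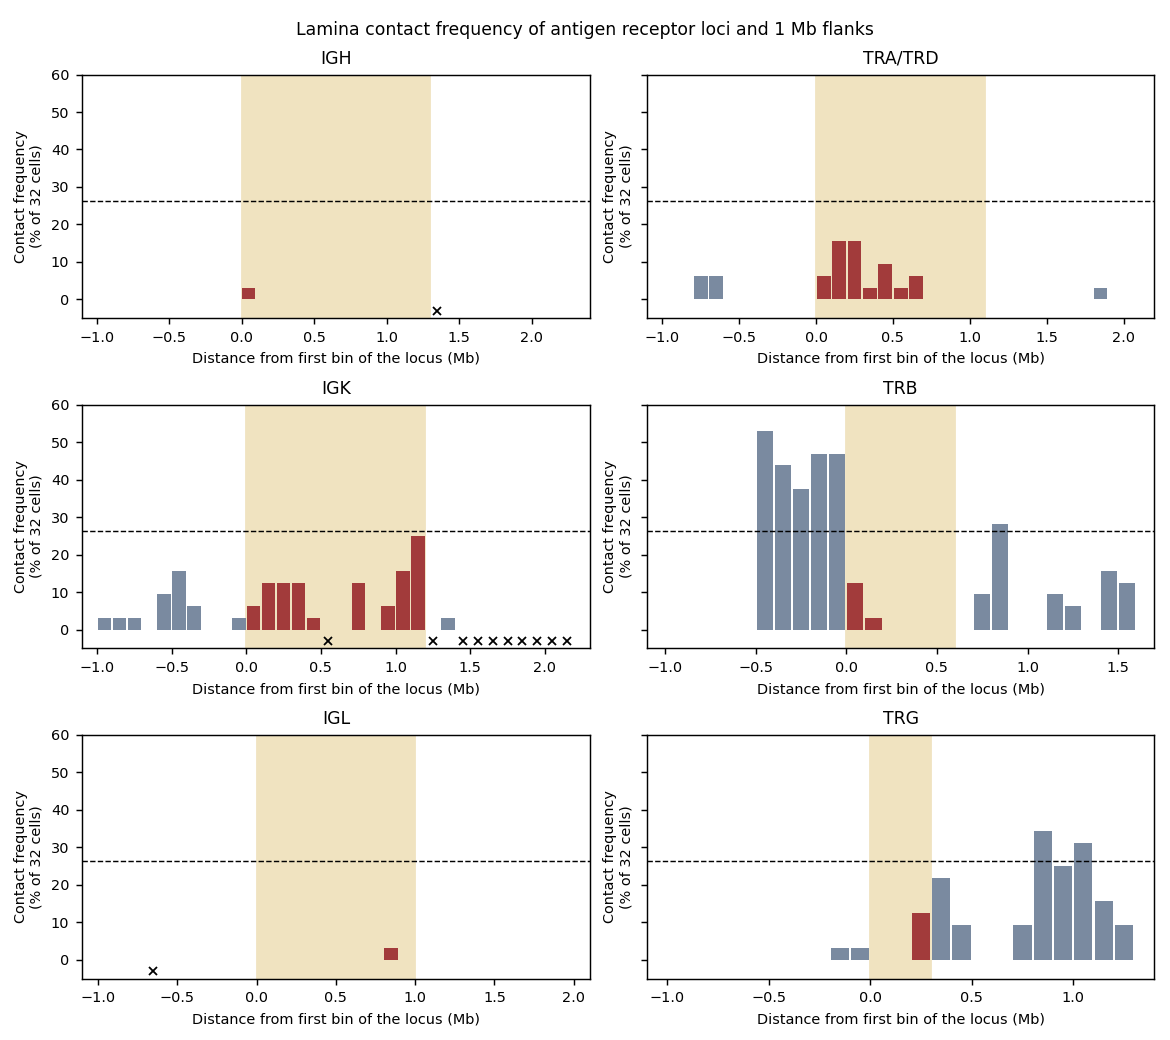
Contact frequency (percentage of 32 cells with an OE of at least 1) of each 100-kb bin against distance in Mb from the first bin of the locus, in red inside the locus (shaded) and blue in the 1 Mb flanks. Crosses mark bins without values, and the dashed line is the frequency expected from the cells' own contact shares. Only IGK reaches 25.0% inside a locus, and the bins beside TRB on the lower-coordinate side reach 37.5 to 53.1%.

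All 6 loci lay below the rest of the genome in contact share, the percentage of bins in contact in a cell. The rest had 26.3% in each comparison. IGH was lower in 32 of 32 cells, with a difference of -26.1 percentage points ± 8.10 (SD), and IGL in 32 of 32 (-26.0 ± 8.25). TRB was lower in 31 cells (-23.7 ± 10.4), TRG in 28 (-22.2 ± 13.3), TRA/TRD in 31 (-20.9 ± 12.9) and IGK in 29 (-16.7 ± 12.4). Each passed the two-sided sign-flip permutation test over cells, adjusted over all windows of the same number of bins along the genome (adjusted p = 1.38e-05 to 1.43e-05, p at the smallest value that 100000 resamples give). Of such windows, 54.6% at the length of IGH and of IGL, 55.0% at that of IGK and TRA/TRD, 55.9% at that of TRB and 56.6% at that of TRG were also lower than the rest.

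In order of contact share the loci were IGK (9.66% ± 13.5), TRA/TRD (5.40% ± 11.3), TRG (4.17% ± 11.2), TRB (2.60% ± 7.46), IGL (0.312% ± 1.77) and IGH (0.240% ± 1.36; SD, n = 32 each). The first places turned under 4 other settings: IGK had 12.8% and TRA/TRD 14.2% with an OE limit of 0.5, 17.0% and 33.2% with any read counted, 5.64% and 8.78% after thinning to 40000 reads, and 4.69% and 5.94% without bins of low expected reads. The last of these turns rested on 2 of the 4 IGK bins left, which had no read in any cell. The remaining IGK bins left had a share of 9.38%. Differences between neighbours in this order were not tested. Each was smaller than its SD over cells, which is a measure of spread and not of the error of the mean. IGK exceeded TRA/TRD by 4.26 points ± 12.9 (higher in 13 cells and lower in 6), TRA/TRD exceeded TRG by 1.23 ± 15.5, TRG exceeded TRB by 1.56 ± 11.5, TRB exceeded IGL by 2.29 ± 7.78 and IGL exceeded IGH by 0.0721 ± 2.26. At least 1 bin was in contact in 15 cells at IGK, 10 at TRA/TRD, 4 each at TRB and TRG, and 1 each at IGL and IGH.

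**Figure D2:**
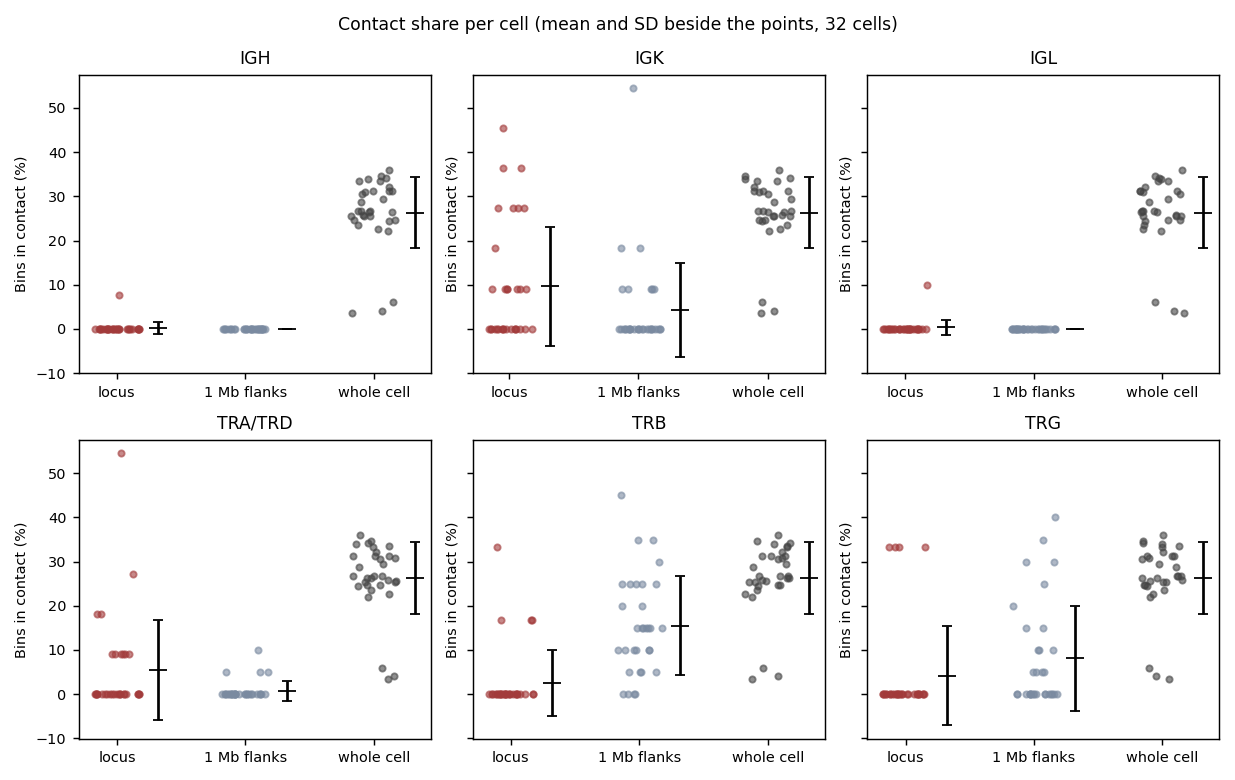
Percentage of bins in contact in each of the 32 cells (points) for the locus, its flanks within 1 Mb and the whole cell, with the mean and SD beside the points. The 3 low points under whole cell are the cells of few reads, and 31 of the 32 points of IGH and of IGL lie at 0.

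IGH, the antibody heavy chain locus, takes up the last 13 bins with values on chromosome 14 (106000001 to 107300000). RefSeq (GRCh38.p14, used for gene order and names alone) lists 48 V, 27 D, 6 J and 9 C segments there that are not pseudogenes, with the C regions at the lower coordinates and the V segments toward the chromosome end. All of its 13 bins were called less often in contact. The single contact was in the first bin, at the constant-region end (106000001 to 106100000), with an OE of 1.14 in cell 30. No other cell had a read there. The recovered count of 1 read against 0.879 expected is therefore only the least that this OE allows. Of all IGH values 5.05% held a read, with 26 reads in all, and 4 bins had none in any cell. The remaining 12 bins stayed below an OE of 1 in every cell, with highest values of up to 0.936.

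The flank of IGH exists on the lower side alone, and its 10 bins held no contact. Mean OE was 0.0184 ± 0.0271 in IGH, against 0.0117 ± 0.0252 in the flank (SD, n = 32). IGH minus flank was 0.240 points (adjusted p = 1.00, with 27.3% of windows called higher), and 31 cells were equal. The first 6 minus the last 6 bins gave 0.521 points (adjusted p = 1.00, with 21.4% of windows called in this direction). The nearest named genes on that side are TMEM121, TEDC1, CRIP1, CRIP2 and MTA1, the last a subunit of the NuRD chromatin remodelling complex. Low contact at this place is shared with other chromosome ends: over the last 13 valued bins of the 21 other chromosomes with values, the median contact share was 0% (0 to 25.2%), and 15 of the 21 were at or below IGH.

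IGL, the lambda light chain locus, showed the same picture on the chromosome given as 22:9 (22300001 to 23300000). It holds 37 V, 7 J and 4 C segments outside pseudogenes, and also VPREB1, part of the surrogate light chain of pre-B cells, and PRAME, a tumour antigen gene. All 10 bins were called less often. The single contact was in cell 23, in the ninth bin (23100001 to 23200000), with 6 reads where 5.72 were expected. A median of 6.39 reads was expected in this bin in the deeper cells, and 29 of its 32 values were 0. No bin of either flank was in contact, and IGL minus flanks was 0.312 points (adjusted p = 1.00, with 26.7% of windows called higher). The first 5 minus the last 5 bins gave -0.625 points (adjusted p = 1.00, with 18.3% of windows called in this direction).

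KBM7 carries the Philadelphia translocation, which joins BCR on chromosome 22 to ABL1 on chromosome 9. BCR follows IGL in gene order, after RSPH14, GNAZ and RAB36, so the flank of higher coordinates may hold sequence of chromosome 9. With either flank alone IGL gave the same difference, since neither had a contact. IGL had a contact share of 0.312% ± 1.77, against 0.408% ± 0.550 in the rest of 22:9 (SD, n = 32), where 137 of 138 bins were called less often.

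IGK, the kappa light chain locus on chromosome 2 (89100001 to 90300000), had the highest contact share of the 6 at an OE limit of 1 and the lowest expected reads. Its C region and J segments lie at the lower coordinates, and RefSeq lists 44 V segments above them, which form a proximal set and a distal inverted copy of it. Most bins above the locus have no value, so its flanks are 10 bins below and 1 above. That 1 had a read in 1 cell alone, so its 0.0670 expected reads are a lower bound. Of the 11 valued bins, 5 were called less often and 6 were not called. The bin at the far V end (90200001 to 90300000) was in contact in 8 of 32 cells (25.0%, exact 95% interval 11.5 to 43.4%), with a mean OE of 0.494 ± 0.913 and values from 0 to 4.15 (median 0). Its 8 contacts rested on 2 to 4 reads each, with a median of 1.09 expected in the deeper cells. The locus takes up 70 kb of this bin. The bin before it was in contact in 5 cells, and 4 further bins were in contact in 4 cells each. The bins 89700001 to 89800000 and 89900001 to 90000000 had no read in any cell.

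The expected reads of IGK bins were low. In the 29 deeper cells a median IGK bin had 1.09 expected reads, against 5.26 over all bins with a read and 4.88 in the flanks of IGK. In 4 IGK bins the recovered expectation was below 1 read, and every value with a read there was a contact. In 1 of them (89500001 to 89600000) only 1 cell had a read, so its expectation is a lower bound. Of the 34 contacts, 10 rested on 1 read as recovered. Only 17.0% of IGK values held a read, against 44.6% in the table.

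**Figure D3:**
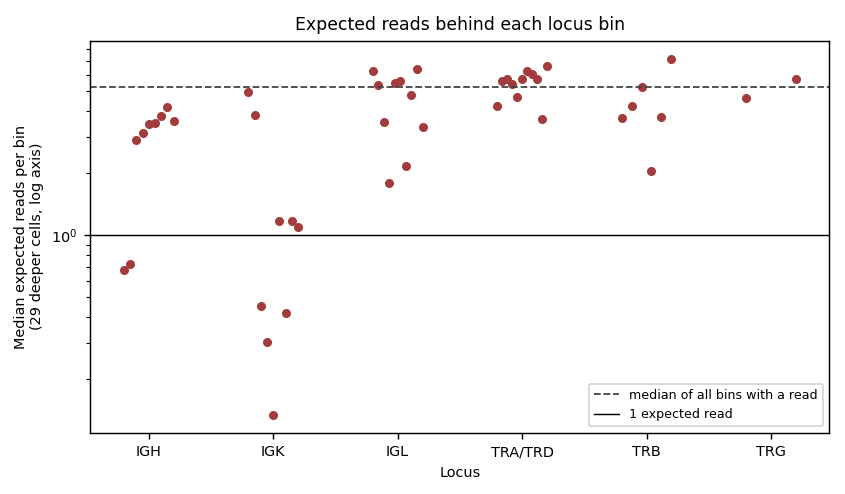
Median expected reads per bin over the 29 deeper cells (log axis) for each locus bin with at least 1 read in some cell. The dashed line is the median of all such bins of the table (5.26), and the solid line is 1 read. Of the IGK points 4 lie under 1 read, as do 2 of IGH. The 2 of IGH and 1 of these IGK points had a read in 1 cell alone and are lower bounds.

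IGK contact exceeded that of its flanks by 5.40 points ± 12.4 (9.66% ± 13.5 in IGK and 4.26% ± 10.6 in the flanks, SD, n = 32). It was higher in 12 cells, lower in 3 and equal in 17 (sign-flip permutation test, adjusted p = 0.0443 over 2373 windows, of which 27.5% were called higher). The call did not hold: it was lost when any one of 12 cells was left out (adjusted p up to 0.0813). Without the bins of low expected reads, which left 4 IGK bins, the difference was -0.223 points (adjusted p = 1.00). Of these 4 bins, 2 had no read in any cell and so no expectation, and they stayed in and lowered the IGK share. This setting therefore cannot tell whether the difference rests on bins of low expected reads. The first 5 bins had a share of 9.38% ± 19.0 and the last 5 of 11.9% ± 19.6, which did not pass (sign-flip permutation test, adjusted p = 1.00, with 18.6% of windows called in this direction). Of the 15 cells with a contact in IGK, 7 had 1 bin in contact, 1 had 2, 4 had 3, 2 had 4 and cell 24 had 5.

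TRA/TRD on chromosome 14 (22000001 to 23100000) encodes the alpha and delta chains. RefSeq lists 49 V, 3 D and 62 J segments and 2 C regions, with the V segments toward the lower coordinates and TRAC, the alpha constant region, last. The olfactory receptor genes OR10G2, OR4E2 and OR4E1 lie inside the locus. Of the 11 bins, 9 were called less often and 2 were not called. Reads below the contact limit were frequent: 33.2% of TRA/TRD values held a read, against 5.05% in IGH, 6.56% in IGL and 44.6% in the table.

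All contacts of TRA/TRD lay in its first 7 bins, toward the V end (22000001 to 22700000), 2 of the 19 in the first bin, of which the locus takes up 10 kb. The bins 22100001 to 22200000 and 22200001 to 22300000 were in contact in 5 cells each (15.6%, exact 95% interval 5.28 to 32.8%). In the one of lower coordinates, 25 of 32 cells had a read and the OE had a mean of 0.652 ± 1.05 and a median of 0.279, with values from 0 to 5.02. The bin 22400001 to 22500000 was in contact in 3 cells, with a mean OE of 0.441 ± 1.03. The last 4 bins, toward the J segments and TRAC (22700001 to 23100000), were in contact in no cell, and their mean OE was 0.0418 ± 0.0621, against 0.322 ± 0.498 in the first 7. These stretches were drawn after the values were seen.

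The comparison made by one rule in each locus but TRG took the first and the last bins, here 5 each. The first 5 had a contact share of 10.0% ± 20.3 and the last 5 of 1.25% ± 4.92 (SD, n = 32), a difference of 8.75 points ± 17.6. The first bins were higher in 9 cells and lower in 0, with 23 equal (sign-flip permutation test, adjusted p = 0.0118 over 2373 windows, of which 19.5% were called in this direction). With an OE limit of 2 the difference was 5.00 points and did not pass (adjusted p = 0.305). In cell 33, 6 bins of the locus were in contact, in cell 24 it was 3 bins, and 22 cells had none. IGK was also in contact in cells 24 and 33, with 5 and 4 bins.

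TRA/TRD stood above its immediate surroundings. Its contact share was 5.40% ± 11.3, against 0.781% ± 2.24 in the flanks within 1 Mb (difference 4.62 points ± 9.85, higher in 10 cells and lower in 1, adjusted p = 0.00548 by the sign-flip permutation test, with 27.5% of windows called higher). The 20 flank bins were all called less often, and 17 of them were never in contact. The nearest genes below are OR10G3, SALL2, a zinc-finger factor, and METTL3, the catalytic subunit of the RNA m6A methyltransferase. Those above start with DAD1, a subunit of the oligosaccharyltransferase.

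The direction depended on how far out the flanks reached. With flanks of 2 Mb, TRA/TRD minus flanks was -3.51 points, with 5.40% in the locus and 8.91% in the flanks (adjusted p = 0.0362). The second Mb on the side of lower coordinates (20000001 to 21000000) had a contact share of 30.0% ± 28.4, with bins in contact in up to 19 cells, and that on the other side 4.06% ± 7.12. With an OE limit of 2 and flanks of 1 Mb the difference was 2.12 points (adjusted p = 0.208).

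**Figure D4:**
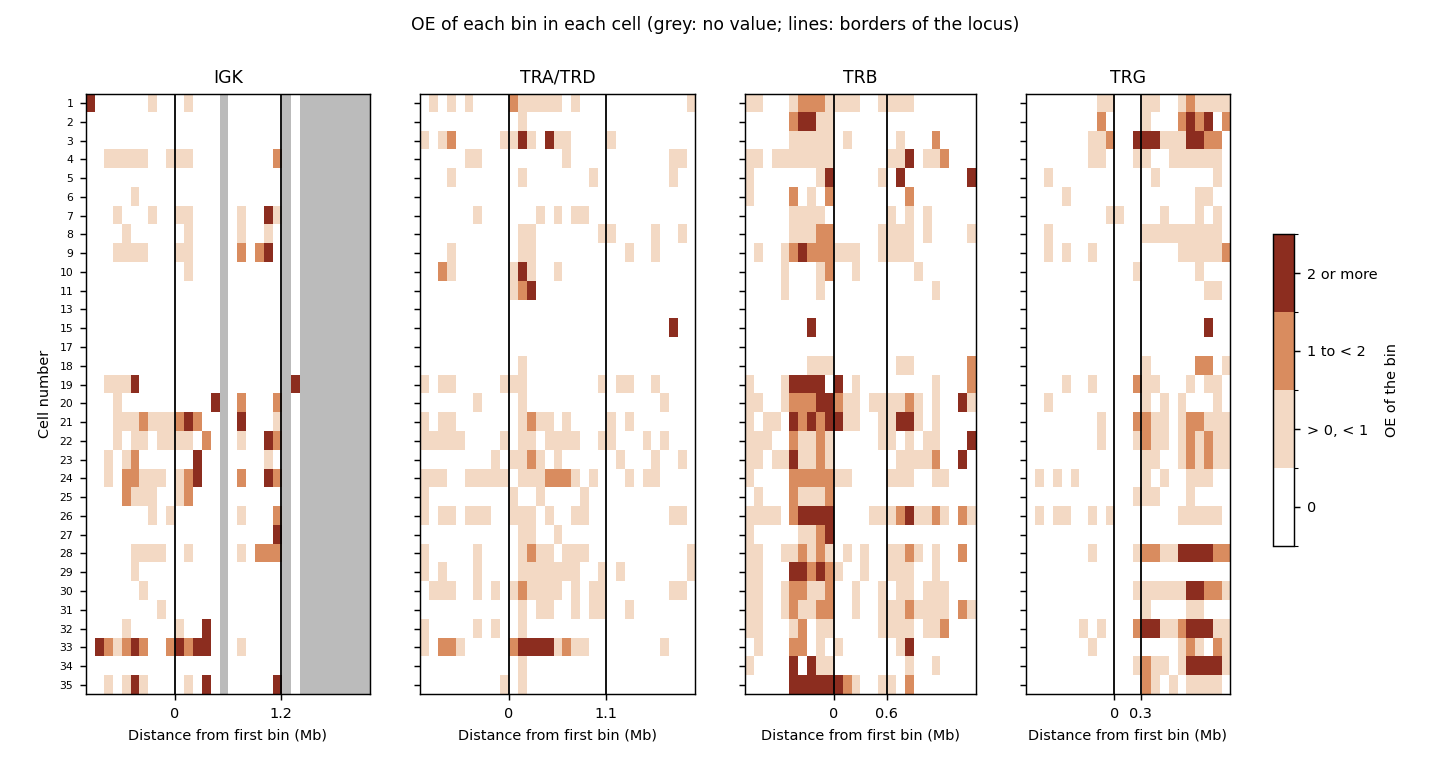
OE of each 100-kb bin of IGK, TRA/TRD, TRB and TRG (columns, from 1 Mb below to 1 Mb above the locus, distance in Mb from the first bin) in each cell (rows, by cell number), with darker colours for higher OE and grey for bins without values. The block of contacts left of TRB ends at its border in most cells, the few TRA/TRD contacts lie in the left part of the locus, and the shallow cells 13, 15 and 17 are nearly blank. Vertical lines mark the borders of the locus.

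TRB, the T-cell receptor beta locus on chromosome 7 (142000001 to 142600000), lay beside a contacted stretch and was itself rarely in contact. RefSeq lists 44 V, 2 D, 13 J and 2 C segments, with most V segments at the lower coordinates, and the trypsinogen genes PRSS1 and PRSS2 inside the locus. Its first bin was in contact in 4 cells (12.5%, exact 95% interval 3.51 to 29.0%), its second in 1 and its last 4 in none. The first bin had a mean OE of 0.334 ± 0.724 with values from 0 to 2.38 (median 0), and the 4 contacts rested on 8 to 10 reads each. In the last 4 bins, a grouping that was not planned, the mean OE was 0.0584 ± 0.0807 (SD, n = 32).

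The 5 bins just below TRB (141500001 to 142000000) were in contact in 17, 14, 12, 15 and 15 cells. Mean OE was 0.113 ± 0.187 in TRB, against 1.50 ± 1.85 in these bins (SD, n = 32), where 1 value of 48.1 came from the shallow cell 15. In 25 cells at least 1 of them was in contact. The 5 bins farther out were never in contact. The split between these stretches was not a planned comparison, and it falls where the contacts begin. The nearest named genes on this side are PRSS58, a trypsin-like protease gene, MGAM2 and MGAM, for maltase-glucoamylases that digest starch, and TAS2R38, a bitter taste receptor gene. Where the bin next to TRB was in contact, in 15 cells, the contact stopped at the border in 12, reached 1 bin into TRB in 2 and 2 bins in 1 (cell 35).

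TRB had a contact share of 2.60% ± 7.46, against 15.5% ± 11.2 in its flanks (difference -12.9 points ± 9.93). It was lower in 27 cells, higher in 1 and equal in 4 (sign-flip permutation test, adjusted p = 3.75e-05 over 4384 windows, of which 30.1% were called lower). The difference depended on the border. The locus starts at 142.00 Mb in the rounded bounds used, exactly where a bin ends. With that bin (141900001 to 142000000, 15 cells) counted as TRB, the share of TRB was 8.93% ± 10.7, and TRB minus flanks was -4.20 points (adjusted p = 0.0506). Above TRB, the side of EPHB6, TRPV6 and TRPV5, the flank had a share of 8.12% ± 9.98, and its bin 142800001 to 142900000 was in contact in 9 cells.

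Inside TRB the first 3 bins held all contacts, at 5.21% ± 14.9 against 0% in the last 3 (adjusted p = 0.359, with 11.6% of windows called in this direction). On mean OE the first 3 bins were higher by 0.138 ± 0.324, in 10 cells against 9 where they were lower, and passed (permutation test, adjusted p = 0.0381). With the border bin counted, the contact difference between first and last 3 bins was 20.8 points (permutation test, adjusted p = 5.28e-04). That bin lies outside the bounds used, was in contact in 15 cells and was added after the values were seen. Its contacts thus fixed this outcome, which shows nothing of the inside of TRB.

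TRG, the gamma chain locus, also on chromosome 7 (38200001 to 38500000), is the smallest, with 6 V, 5 J and 2 C segments. Its C regions lie at the lower coordinates. The first 2 bins were never in contact and held 1 read in all cells together. The last bin (38400001 to 38500000) was in contact in 4 cells (12.5%) and had a read in 11, with a mean OE of 0.295 ± 0.630 and values from 0 to 2.86 (median 0). All 4 contacts of TRG came from this bin, of which the locus takes up 10 kb and the AMPH side the rest, so they cannot be placed inside TRG.

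The surroundings of TRG were lopsided. Below it, on the side of STARD3NL, a cholesterol transport factor of endosomes, the flank had a contact share of 0.625% ± 2.46. Above it, on the side of AMPH, for the endocytosis protein amphiphysin of nerve terminals, the share was 15.6% ± 22.6 (SD, n = 32), with up to 11 cells in a bin. TRG minus both flanks was -3.96 points ± 12.8 and did not pass (sign-flip permutation test, adjusted p = 0.171, with 27.9% of windows called lower). Against the upper flank alone it was -11.5 points (adjusted p = 0.00663), and against the lower alone 3.54 points (adjusted p = 0.239). On mean OE, which uses reads below the contact limit, TRG minus flanks was -0.181 ± 0.285 (adjusted p = 0.00114). The bin next to TRG on the AMPH side was in contact in 7 cells, and the last bin counted to TRG was also in contact in 3 of these.

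The contacts lay toward the V end in TRA/TRD and TRB (a pattern drawn up after the values were seen). At an OE limit of 1 and with the bounds used, the comparison of first with last bins passed in TRA/TRD and not in TRB, and both calls changed under settings named above. TRG had too few bins for it. In IGK both ends held contacts, and IGH and IGL had 1 contact each, at or near the C end.

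Between 2 loci, Pearson's r of their mean OE in the 29 deeper cells ranged from -0.17 (IGH and TRG) to 0.45 (IGK and TRA/TRD) among 15 pairs. The highest rested on cell 33, without which it was 0.07. For IGK and TRB r was 0.38, and 0.27 without cell 21. These are descriptions of sparse values whose points share the depth of the cell. A contact at both IGK and TRA/TRD occurred in 5 cells, where the product of their shares of cells gives 4.69. Among 1 Mb windows of other chromosomes, the contact share of TRA/TRD was most like that of a window on chromosome 2 (88000001 to 89000000, beside IGK) and of one on chromosome 5 (59900001 to 60900000), both at r = 0.83 and the highest of 2024 windows. Without cell 33 these fell to 0.46 and 0.63. For IGK the highest of 1902 windows was on chromosome 16 (8000001 to 9000000, r = 0.67, and 0.57 without cell 24).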

How the data were processed

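Lamina contacts were measured by single-cell DamID of lamin B1 in 35 labelled cells of KBM7 clone 5-5, of which 32 had a column; the other 3 were not analysed here. The deposited values are ratios of observed over expected reads (OE) per bin of 100 kb and cell. Per the submitters' processing notes, cutadapt, Bowtie2 2.1.0 and hg19 were used. How the expectation was made is not given in the sources used here. Per the labels, amplification had 21 extension steps.

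From the ratios, whole reads were recovered from their steps (100% of values whole within 0.01 reads) and used for depth, thinning and expected reads alone; expectations of bins with few reads may be understated. Reads after amplification are not independent molecules, so intervals (exact binomial, 95%) and the limit at a count of 0 (3 counts) cover counting error only. Bins with values were 26584 of 30376.

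The number of cells in contact at each bin was set against the cells' own shares (Poisson-binomial, exact, two-sided). Locus against flanks, rest, and first against last bins were tested by flipping the signs of the cells' differences (permutation, two-sided, 100000 resamples), repeated on every non-overlapping window of as many bins. Both were adjusted by the Benjamini-Hochberg method over the whole table, with a threshold of 0.05. They were checked on simulated data with independent bins, which does not cover contacts that run over neighbouring bins. Alternatives varied the OE limit, flanks, depth, bins of low expected reads and left-out cells; counting the TRB border bin and leaving out each cell (correlations included) were added after seeing the data.

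The loci, flanks and lists were chosen with earlier results of these data known. Named were all loci with every valued bin, their flanks, the bins of highest and lowest frequency, and the windows most alike in contact share; neighbouring genes were named by order in RefSeq GRCh38.p14, and their bins are not known here. A list of recombination and receptor pathway genes was not used here, since it could not be placed in hg19. None of the gene segments had a promoter sequence in the tables used. Python 3.11.15, numpy 2.4.6, pandas 2.3.3, scipy 1.17.1 and matplotlib 3.10.9 were used.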

Additional observations from a re-analysis of the deposited data

How the results depend on the processing

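Of 193 values under other settings, 162 stayed the same, 8 no longer passed, 7 newly passed, 11 reversed and 5 moved. A difference stayed the same if its call held and its sign did not reverse. A contact share, which has no call, moved if it changed by its SD or more, and a count of called bins if it left a fixed factor. IGK minus flanks was 5.11 with an OE limit of 0.5 (adjusted p = 0.110, permutation test as for all p here), 2.84 with a limit of 2 (0.0934), -2.27 with any read counted (0.517), 0.313 after thinning (1.00), -0.223 without bins of low expected reads (1.00), 0.0372 on mean OE (0.724) and 4.97 with flanks of 0.5 Mb (0.0751). Leaving out 1 cell gave 4.69 to 6.16 (adjusted p = 0.0173 to 0.0813), and the call was lost without any one of cells 4, 7, 9, 20, 21, 22, 24, 26, 27, 28, 32 and 35. TRA/TRD minus flanks was 2.12 with a limit of 2 (0.208) and -3.51 with flanks of 2 Mb (0.0362), and its first minus last bins 5.00 with a limit of 2 (0.305). Without 1 cell these gave 3.33 to 4.93 (0.00355 to 0.0111) and 6.45 to 9.03 (0.0110 to 0.0231). TRB minus flanks was -4.20 with the border bin (0.0506) and -13.4 to -11.8 without 1 cell. First minus last bins of TRB were 0.138 on mean OE (0.0381) and 20.8 with the border bin (5.28e-04). The latter was fixed by the contacts of that bin, which lies outside the bounds used. TRG minus flanks was -8.59 with a limit of 0.5 (0.00462), -17.8 with any read (5.83e-05), -8.39 after thinning (0.00689), -0.181 on mean OE (0.00114), 3.54 against the lower flank (0.239) and -11.5 against the higher (0.00663). First minus last bins, with no call, reversed in IGH (-5.73 with any read, -0.0112 on mean OE), IGL (1.88 and 9.77e-04) and IGK (1.25 with any read, 1.25 with a limit of 2, 9.38 without bins of low expected reads). In the last of these the later IGK bins were the 2 without a read in any cell. Its sign was thus fixed beforehand and shows nothing of the V end. With any read counted, contact shares were 5.05 in IGH, 6.56 in IGL, 33.2 in TRA/TRD and 21.9 in TRB. With no bins left out, 44 of the 54 locus bins and 54.5% of all bins were called less often. Without bins of low expected reads, it was 29 of 33 locus bins. The share of all bins for that count is not given here, so it cannot be set against a background. Bins without a read in any cell have no expectation and stayed in under this setting. They are 7 of the 33 locus bins, and bins never in contact are always called less often. The causes were not tested. IGH and IGK had too few bins above for the higher flank alone. No paired analysis was possible because there was 1 group, and the cells' numbers pair nothing. Of the 6 loci, IGK had the lowest expected reads, with 1.09 in a median bin in the deeper cells.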
